A study of Mus musculus with 24 samples.

Results

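The effect of linoleic acid (LA) on transcript levels was compared between day 6 and day 2 of muscle differentiation. The quantity described is a difference of differences, LA against vehicle at day 6 minus LA against vehicle at day 2, and it is called the day difference here. It used 16 of the 24 libraries of the series, 4 in each of 4 groups fixed by the labels. The groups were wild-type C2C12 cells given LA and collected at day 6, vehicle-treated cells at day 6, LA-treated cells at day 2 and vehicle-treated cells at day 2. C2C12 is a mouse myoblast line. All cells were grown with 10% fetal bovine serum and switched to 2% horse serum to differentiate, and LA was bound to bovine albumin and used at 100 µM during differentiation. The other 8 libraries came from cells given recombinant mouse ANGPTL4 at 10 ng/mL for the same times. They shared the estimate of spread and served as a second treated course. What the vehicle contained is not given in the sources used here, and the labels do not say that replicates were separate cultures, so p-values measure the spread between these samples, which may be technical.

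Linoleic acid is a polyunsaturated fatty acid that cells oxidise, store in lipid droplets and build into membranes. Fatty acids also act as ligands of the peroxisome proliferator-activated receptors (PPARs), nuclear receptors whose targets include genes of fatty acid transport, oxidation and storage. Serum withdrawal drives myoblasts out of the cell cycle, after which Myod1 and Myog switch on muscle genes, membrane proteins such as Mymk and Mymx fuse the cells, and the resulting myotubes build sarcomeres and the calcium release machinery. A part of a C2C12 culture does not fuse and stays mononucleated, and these reserve cells express matrix and quiescence genes. In these bulk samples, fewer cells of a type and less RNA per cell cannot be told apart.

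Library totals in megacounts (M) ranged between 8.19 and 15.2 for day 6 LA, 9.85 and 12.6 for day 6 vehicle, 9.55 and 25.05 for day 2 LA, and 9.85 and 14.5 for day 2 vehicle libraries. The day 2 means were 19.2 ± 7.31 M with LA and 11.97 ± 1.98 M with vehicle (SD, n = 4 each; 2-sided exact permutation p = 0.143, 0.286 adjusted over 2 tests, where 70 splits allow no p under 0.0286). The leading principal component (47.5% of variance) split the libraries by day. In the day 2 LA group, library 3 lay at -19.3 on the second component, with its 3 partners between 1.32 and 4.07, and library 4 lay at 4.84 on the fourth, with its partners between -14.2 and -12.4. Results that rest on these libraries are given with and without them. Myoblast and myotube markers were present in every group, with Des means of 1806 to 2556 CPM (the usual unit of counts scaled to library size), Myog means of 682 to 921 CPM, Myod1 means of 113 to 168 CPM and Myf5 means of 8.19 to 17.2 CPM. Endothelial markers held at most 0.00151% of counts in any of the 16 libraries (7 of 12 in the table) and macrophage markers 0.000938% (6 of 13). Smooth muscle markers held 0.396 to 0.552% and bone and cartilage markers 0.186 to 0.286%, and fibroblast and adipocyte markers are given beside the groups they moved with.

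The LA effect differed between the days for 2554 of 12994 genes tested (19.7%), in edgeR's quasi-likelihood test at a Benjamini-Hochberg adjusted p under 0.05. The day difference was positive for 1128 genes (8.68%) and negative for 1426 (11%), and it reached 2-fold for 92 and 93 of them. Without day 6 vehicle library 1, day 6 vehicle library 2 or day 2 LA library 3 the negative count was 890, 944 and 896. LA against vehicle was called for 2237 genes at day 6 (17.2%) and for 1961 genes at day 2 (15.1%). The day 2 count was 632 without day 2 LA library 3 and 1109 without day 2 vehicle library 4. The median day difference over all genes tested was -0.018 on the log2 scale.

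Genes with a called day difference fell into patterns by their calls at each day. The LA effect was called at day 6 and not at day 2 for 1111 of the 2554 genes (43.5%), 535 with a positive and 576 with a negative day difference. It was called at day 2 and not at day 6 for 820 genes (32.1%), 290 with a positive day difference and a median log2 effect of -0.24 at day 2, and 530 with a negative one and a median effect of 0.39. In 170 genes the effects were called at both days with opposite signs, in 30 they had 1 sign and were larger in size at day 6, and in 423 neither day alone was called. The day 2 pattern counted 283 genes without day 2 LA library 3 and 477 without day 2 vehicle library 4. The opposite-sign pattern counted 55 and 76 without these libraries, 99 without day 6 vehicle library 1, and 106 and 113 without day 6 LA libraries 2 and 4.

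**Figure D1:**
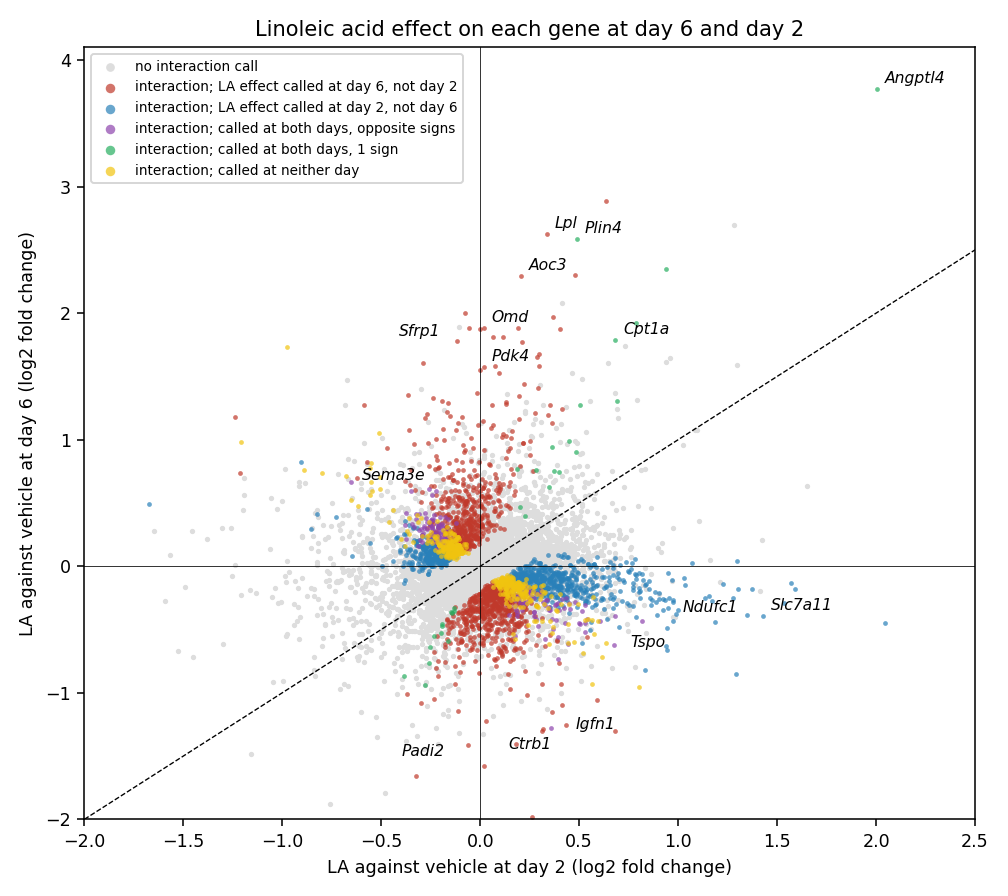
Log2 fold change of LA against vehicle at day 6 (vertical) and at day 2 (horizontal) for each tested gene, coloured by its call in the day difference (interaction in the legend) and its calls at each day; the dashed line marks equal effects and 3 genes lie outside the axes. Angptl4 lies far out on both axes, a column of genes such as Lpl, Pdk4, Omd and Sfrp1 lies high at day 6 and near 0 at day 2, and Ndufc1 and Slc7a11 lie to the right, above vehicle at day 2.

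Transcripts of lipid handling gave some of the highest day differences. Angptl4, which encodes a secreted inhibitor of lipoprotein lipase and is a known PPAR target, had 302, 261, 306 and 269 CPM in the day 6 LA libraries, against 20.5, 21.9, 20.2 and 20.6 CPM with vehicle. Angptl4 at day 2 had 82.4, 82.7, 81.8 and 79.8 CPM with LA, against 18.6, 21.8, 18.8 and 21.8 CPM with vehicle. The vehicle libraries of both days lay at one level, and the LA libraries lay above them at day 2 and higher still at day 6. LA raised Angptl4 13.7-fold at day 6 and 4.02-fold at day 2, a day difference of 1.77 on the log2 scale (SE 0.0929, adjusted p = 5.67e-15), with LA above vehicle in 16 of 16 library pairs at each day.

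Cpt1a encodes the carnitine palmitoyltransferase that admits long-chain fatty acids to mitochondria. It had 247, 239.9, 254 and 258 CPM with LA at day 6, against 73.3, 70.9, 76.2 and 68.6 CPM with vehicle. Cpt1a at day 2 had 142, 141, 141 and 141 CPM with LA, against 90.5, 86.9, 81.2 and 93.6 CPM with vehicle. Groups did not overlap at either day, and the LA effect was 3.46-fold at day 6 and 1.604-fold at day 2 (day difference 1.11, SE 0.0684, adjusted p = 3.19e-13). Pdk4, a kinase that inactivates pyruvate dehydrogenase and so spares glucose, responded at day 6 and had no call at day 2. It had 111, 99.8, 126 and 111 CPM with LA at day 6, against 37.7, 34.7, 41.6 and 35.6 CPM with vehicle. Pdk4 at day 2 had 36.2, 28.5, 38.9 and 28.4 CPM with LA, against 33.4, 28.7, 28.6 and 41.5 CPM with vehicle, groups that overlapped. The day difference of Pdk4 was 1.56 (SE 0.155, adjusted p = 7.53e-07), from log2 effects of 1.58 at day 6 and 0.02 at day 2 (adjusted p = 0.941).

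Lpl, which encodes lipoprotein lipase itself, had 25.99, 42.8, 34.8 and 47.7 CPM with LA at day 6, against 3.77, 5.28, 8.34 and 6.85 CPM with vehicle. Lpl at day 2 had 62.4, 62.7, 77.4 and 56.4 CPM with LA, against 56.9, 42.2, 44.2 and 63.4 CPM with vehicle. Every day 6 library lay below the day 2 libraries of its treatment, most deeply with vehicle, and the LA and vehicle groups were apart at day 6 and overlapped at day 2. The log2 effect of LA was 2.63 at day 6 and 0.33 at day 2 (adjusted p = 0.189), a day difference of 2.29 (SE 0.298, adjusted p = 5.19e-05). Plin4, a lipid droplet coat protein, had LA and vehicle groups that did not overlap at either day. It had 17.2, 28.8, 16.8 and 24.8 CPM with LA at day 6, against 2.78, 2.89, 5.42 and 3.22 CPM with vehicle, and at day 2 17.5, 15.2, 12.6 and 14.4 CPM with LA, against 10.6, 10.6, 10.5 and 10.97 CPM with vehicle (day difference 2.1, SE 0.268, adjusted p = 1.53e-05). Plin4 fell between the days in vehicle cells by 1.55 on the log2 scale and rose in LA cells by 0.55. The coat protein gene Plin2 rose 1.98-fold with LA at day 6 and 1.36-fold at day 2 (day difference 0.54, adjusted p = 8.04e-06), and its groups did not overlap at either day.

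**Figure D2:**
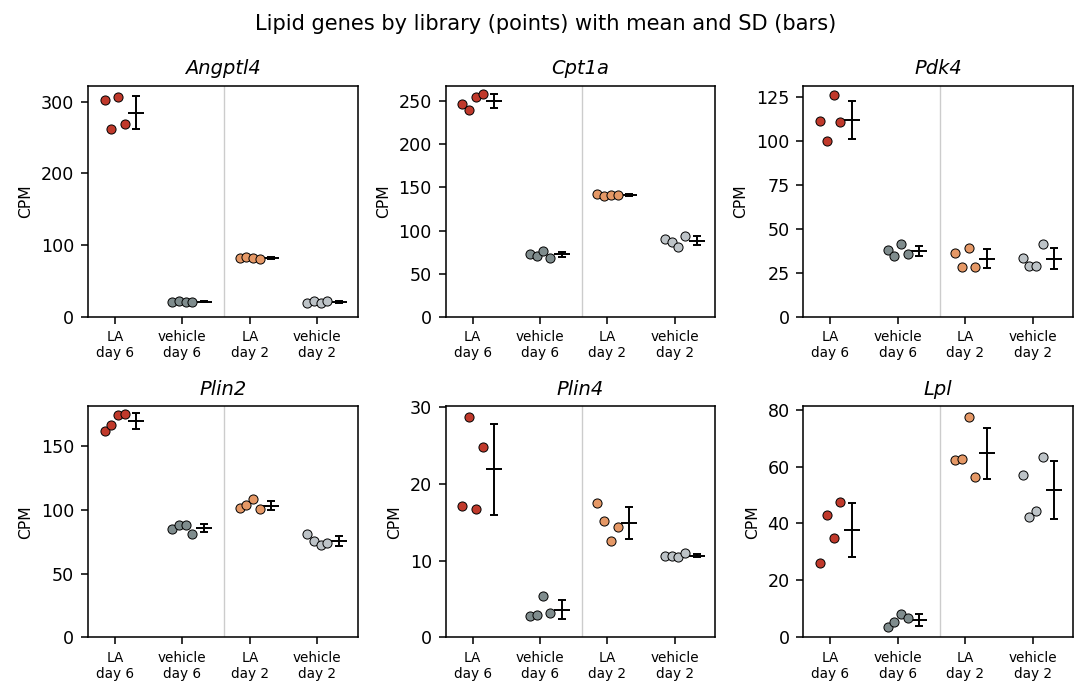
CPM (vertical) of 6 lipid genes in each library, grouped as LA and vehicle at day 6 and LA and vehicle at day 2; points are libraries and bars the mean ± SD (n = 4). The day 6 LA libraries of Angptl4, Cpt1a, Pdk4 and Plin2 stand above all other groups. Those of Lpl stand above the day 6 vehicle and below the day 2 LA libraries, and overlap the day 2 vehicle libraries.

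Of 36 tested members of the PPAR target list, the day difference was positive for 9 and negative for 3, a share of 33.3% called beside 19.7% of all genes. The median day difference of the list was 0.06, with median LA effects of 0.16 at day 6 and 0.21 at day 2. LA raised 13 members at day 6 (7.83% of all genes tested rose) and 15 at day 2 (8.27% rose). The 9 positive members were Angptl4, Cpt1a, Plin2, Plin4, Lpl, Pdk4, Ucp2, Acadl and Acaa2, and the 3 negative ones Fabp3, Acads and Slc27a1; Ucp2 and Slc27a1 are named after their values were seen. The negative count was 1 to 4 in the 16 omissions, with 1 without day 2 vehicle library 2, day 2 LA library 2 or 3, day 6 vehicle library 1 or 4, or day 6 LA library 1, and 1 with length and GC trends removed. Acadl, an acyl-CoA dehydrogenase, had a day difference of 0.18 (adjusted p = 0.0482), lost in 11 of 27 alternatives. Acaa2, a thiolase of beta-oxidation, had 112 ± 11.2 CPM with LA and 72.8 ± 5.89 CPM with vehicle at day 6, and 81.9 ± 4.06 and 64.2 ± 3.95 CPM at day 2 (SD, n = 4 each; day difference 0.28, adjusted p = 0.0492). That call was lost in 11 of 27 alternatives. The fatty acid binding protein gene Fabp3 went the other way, with 18.1 ± 1.06 CPM with LA and 17.7 ± 2.41 CPM with vehicle at day 6, and 10.8 ± 2.11 and 7.69 ± 1.25 CPM at day 2 (day difference -0.53, adjusted p = 0.0274, lost in 7 of 27 alternatives). Cd36, the fatty acid translocase, gave no call, at 104 ± 2.78 CPM with LA and 91.03 ± 6.33 CPM with vehicle at day 6, and 66.3 ± 7.71 and 68.9 ± 8.75 CPM at day 2 (day difference 0.24, adjusted p = 0.288).

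The neighbouring lipid lists were mixed in direction. Mitochondrial fatty acid oxidation had 3 positive and 1 negative of 27 (14.8% called, beside 19.7% of all genes), peroxisomal oxidation 1 and 4 of 24 (20.8%), droplets and lipolysis 3 and 2 of 20 (25%), uptake and activation 3 and 4 of 21 (33.3%), and synthesis and desaturation 2 and 5 of 21 (33.3%). Leaving out each of the 16 libraries in turn gave 0 to 2 negative calls for uptake and activation, 1 to 4 for peroxisomal oxidation 2 to 5 for synthesis and desaturation and 0 to 2 for droplets and lipolysis, and 1 to 3 positive calls for mitochondrial oxidation. Lipe, hormone-sensitive lipase, had 8.04 ± 0.782 CPM with LA and 3.43 ± 0.628 CPM with vehicle at day 6, and 4.68 ± 0.779 and 3.43 ± 0.427 CPM at day 2 (day difference 0.83, adjusted p = 0.00879; 0.0712 after thinning all libraries to the smallest total). Crot, a peroxisomal carnitine acyltransferase, had a day difference of 0.32 (adjusted p = 0.00772; 0.0720 after thinning). The elongase Elovl6 (0.46, adjusted p = 0.004897) and the desaturase family member Fads3 (-0.38, adjusted p = 9.20e-04) differed in opposite directions. The 6 of 15 adipocyte markers in the table held 0.0104 to 0.0125% of counts with LA and 0.00628 to 0.00696% with vehicle at day 6, and 0.01199 to 0.0146% and 0.00993 to 0.0118% at day 2. The 2 of them with a called day difference were Lpl and Lipe, Cebpa and Pparg gave no call, and their part in the lipid results was not tested.

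Of 24 sterol synthesis transcripts 8 were called, all with a lower LA effect at day 6 (33.3% called, beside 19.7% of all genes and 11% negative), and 16 were not called. The median day difference of the list was -0.18, and the count was 5 without day 6 vehicle library 1, 2 or 4 and 4 without day 2 LA libraries 3 and 4 together. Dhcr7, which catalyses the last step to cholesterol, had 60.9, 55.98, 58.6 and 59.2 CPM with LA at day 6, against 93.9, 88.01, 84.4 and 79.9 CPM with vehicle. Dhcr7 at day 2 had 58.1, 61.9, 61.3 and 61.2 CPM with LA, against 66.7, 67.5, 63.95 and 52.96 CPM with vehicle. The day 6 groups were apart, with LA lower, and the day 2 groups overlapped (day difference -0.51, SE 0.101, adjusted p = 6.50e-04). Ebp, a sterol isomerase, had a day difference of -0.48 (adjusted p = 2.89e-04) and was below vehicle at day 6 in 16 of 16 pairs.

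**Figure D3:**
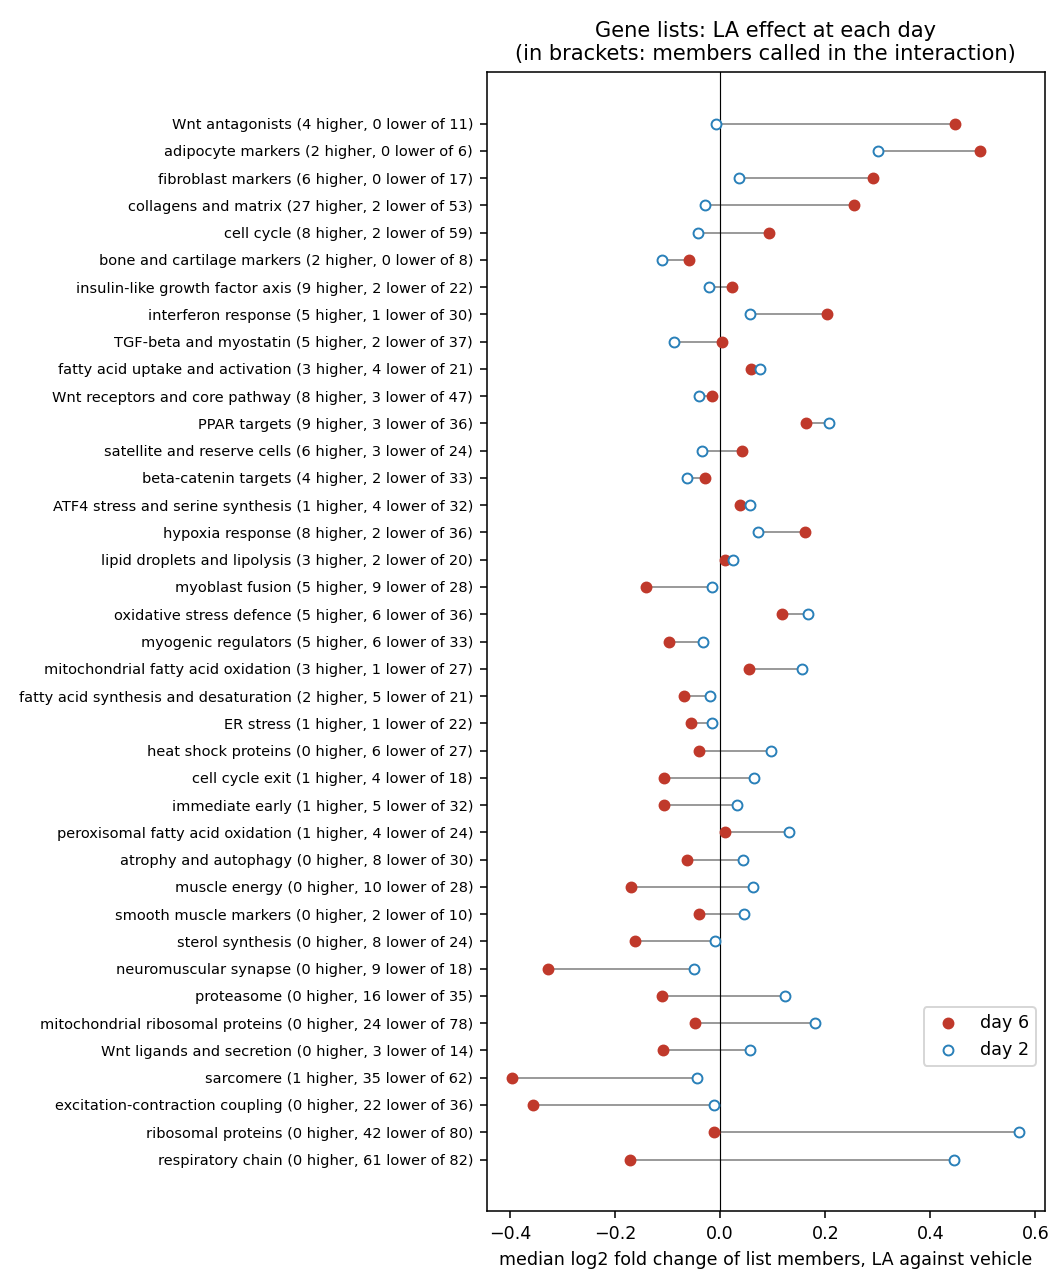
Median log2 fold change of LA against vehicle over the tested members of 39 gene lists, at day 6 (filled) and day 2 (open), ordered by the median day difference; brackets give the members called in the day difference. Muscle lists lie left of 0 at day 6 and near it at day 2, matrix lists lie right of 0 at day 6, and ribosomal and respiratory chain lists lie right of 0 at day 2.

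Contractile genes formed a large group with negative day differences. In the sarcomere list 35 of 62 members had a lower LA effect at day 6 than at day 2 and 1 a higher one, a share of 58.1% called beside 19.7% of all genes (median -0.32). LA lowered 50 members at day 6 (9.38% of all genes fell) and 7 at day 2 (6.82% fell), with median effects of -0.4 and -0.04. Read as courses, 39 members rose and 8 fell between day 2 and day 6 in LA cells (23.1% of all genes rose and 20.7% fell), and 52 rose and 3 fell in vehicle cells (25.2% rose and 20.5% fell). The list held 4.38 to 4.76% of counts with LA and 5.71 to 6.08% with vehicle at day 6, and 4.13 to 4.83% and 4.75 to 5.21% at day 2.

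Acta1, skeletal muscle actin, had 3053, 2666, 3044 and 2865 CPM with LA at day 6, against 4052, 3949, 3674 and 4021 CPM with vehicle. Acta1 at day 2 had 2433, 2499, 2621 and 2530.0 CPM with LA, against 2393, 2742, 2485 and 2385 CPM with vehicle. LA libraries were lower at day 6 with no overlap, and the day 2 groups overlapped (day difference -0.44, SE 0.0726, adjusted p = 8.02e-05; 0.099 with each library's trend on transcript length and GC content removed). Des, the intermediate filament desmin, averaged 1855 ± 87.5 CPM with LA and 2556 ± 97.9 CPM with vehicle at day 6, and 1806 ± 106 and 1821 ± 84.7 CPM at day 2 (SD, n = 4 each; day difference -0.45, adjusted p = 5.08e-05). Tcap, the titin cap of the Z-disc, averaged 44.1 ± 8.94 CPM with LA and 67.9 ± 2.98 CPM with vehicle at day 6, and 17.8 ± 1.604 and 14.5 ± 1.58 CPM at day 2 (day difference -0.91, adjusted p = 5.29e-05). The cardiac actin gene Actc1, expressed in embryonic muscle, had a day difference of -0.52 (adjusted p = 3.58e-05). Embryonic myosin Myh3 was lowered at both days, by 0.45 on the log2 scale at day 6 and 0.19 at day 2, and its day difference of -0.26 (adjusted p = 0.0312) was lost in 13 of 27 alternatives.

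Genes of excitation-contraction coupling, which turn the nerve signal into calcium release, moved in the same direction. The day difference was negative for 22 of 36 members and positive for 0 (61.1% called beside 19.7% of all genes, median -0.38). Ryr1, the calcium release channel, had 588, 536, 563 and 580.3 CPM with LA at day 6, against 853, 861, 860.5 and 839 CPM with vehicle. Ryr1 at day 2 had 503, 538, 483 and 563 CPM with LA, against 551, 562, 594 and 515 CPM with vehicle. The day 6 vehicle libraries stood above the other 12, and the other 3 groups overlapped (day difference -0.5, SE 0.0784, adjusted p = 5.29e-05). Atp2a1, the calcium pump of fast fibres, averaged 696 ± 95.1 CPM with LA and 1104 ± 71.7 CPM with vehicle at day 6, and 767 ± 43.9 and 793 ± 51.9 CPM at day 2 (day difference -0.62, adjusted p = 8.57e-05). The calcium channel subunit Cacnb1 (-0.48, adjusted p = 2.13e-05) and the reticulum cation channel Tmem38a (-0.52, adjusted p = 6.07e-05) were below vehicle at day 6 and had no call at day 2.

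At the neuromuscular synapse, 9 of 18 members had a negative day difference and 0 a positive one (50% called beside 19.7% of all genes, median -0.18). Chrng, the embryonic gamma subunit of the acetylcholine receptor, had 246, 204, 239.9 and 233 CPM with LA at day 6, against 354, 349.8, 320.3 and 340.1 CPM with vehicle. Chrng at day 2 had 220.0, 239, 244 and 223 CPM with LA, against 218, 226, 215 and 217 CPM with vehicle. Between day 2 and day 6 Chrng rose by 0.64 on the log2 scale in vehicle cells and had a change of -0.01 in LA cells (adjusted p = 0.942). Its day difference was -0.64 (SE 0.0734, adjusted p = 6.09e-07). The delta subunit Chrnd (-0.54, adjusted p = 1.32e-05) and the alpha subunit Chrna1 (-0.39, adjusted p = 4.02e-05) differed likewise. In the muscle energy list 10 of 28 members were called, all negative (35.7%), and 4 with length and GC trends removed. Pygm, muscle glycogen phosphorylase, had a day difference of -0.4 (adjusted p = 3.62e-04) and creatine kinase Ckb -0.49 (adjusted p = 8.57e-05). Ckm, the muscle creatine kinase, had -0.52 (adjusted p = 0.0174; 0.0509 without day 6 vehicle library 1).

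Promoter sequences of 4 of these genes are shown because Myod1 and Myog bind E-boxes, of which CAGCTG is a well-known form, and muscle genes moved together. They were chosen after their values were seen, and all 4 hold CAGCTG, unlike most windows of their lists, as given below. Each is 300 bases on the gene's own strand, from 250 before to 50 after the start, from RefSeq's GRCm38.p6, a different build from that named for the counts, and genes were matched by symbol. Capitals mark CAGCTG, which reads the same on both strands. It lies 155 and 132 bases upstream of the start in Chrng, 92 and 44 in Chrna1, 36 in Des and 221 in Acta1.
Chrng, chr1:87205561-87205860, plus strand: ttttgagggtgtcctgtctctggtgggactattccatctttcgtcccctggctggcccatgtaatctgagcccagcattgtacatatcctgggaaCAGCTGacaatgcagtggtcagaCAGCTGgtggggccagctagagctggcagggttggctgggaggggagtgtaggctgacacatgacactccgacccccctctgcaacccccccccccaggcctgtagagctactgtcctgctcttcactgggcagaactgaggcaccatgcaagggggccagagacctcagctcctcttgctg
Chrna1, chr2:73580289-73580588, minus strand: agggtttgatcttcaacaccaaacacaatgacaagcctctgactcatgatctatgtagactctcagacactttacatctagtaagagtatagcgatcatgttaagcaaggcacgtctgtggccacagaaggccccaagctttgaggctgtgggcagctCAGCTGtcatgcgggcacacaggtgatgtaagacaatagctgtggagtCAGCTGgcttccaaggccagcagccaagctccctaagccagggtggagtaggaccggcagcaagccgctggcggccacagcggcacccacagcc
Des, chr1:75360042-75360341, plus strand: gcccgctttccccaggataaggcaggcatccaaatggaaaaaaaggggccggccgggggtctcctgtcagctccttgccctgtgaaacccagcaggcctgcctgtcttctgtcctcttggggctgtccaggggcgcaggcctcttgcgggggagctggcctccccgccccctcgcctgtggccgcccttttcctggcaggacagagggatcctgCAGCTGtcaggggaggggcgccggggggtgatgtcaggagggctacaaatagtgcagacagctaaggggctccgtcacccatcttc
Acta1, chr8:123894726-123895025, minus strand: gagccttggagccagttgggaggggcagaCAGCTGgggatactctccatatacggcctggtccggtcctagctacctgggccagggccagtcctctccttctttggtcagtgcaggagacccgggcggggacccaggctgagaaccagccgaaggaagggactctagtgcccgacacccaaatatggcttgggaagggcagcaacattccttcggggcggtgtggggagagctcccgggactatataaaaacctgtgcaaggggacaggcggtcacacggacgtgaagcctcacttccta

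CAGCTG occurred in 23 of 63 windows of 50 sarcomere genes matched (36.5%), in 34.4% of excitation-contraction coupling windows, in 35.0% of neuromuscular synapse windows, in 32.4% of PPAR target windows, in 20.5% of matrix windows and in 8.22% of respiratory chain windows. Over all 13124 windows of tested genes with a match the share was 15.9%. The pattern CTANNNNTAG, where N is any base, is looser than the MEF2 core and is also its own reverse complement. It occurred in 17.5% of sarcomere windows and 3.23% of windows of tested genes. The PPAR element AGGTCANAGGTCA, searched on both strands, occurred in 0 of 34 PPAR target windows and in 0.0305% of windows of tested genes. Overlap between matches of different motifs was not considered, a gene can have several overlapping windows, and these are matches of letters, not sites of binding.

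Mymk (myomaker), a membrane protein needed for myoblast fusion, had 346, 294, 349 and 309 CPM with LA at day 6, against 567, 512, 432 and 445 CPM with vehicle. Mymk at day 2 had 471, 469, 492 and 418 CPM with LA, against 428, 462, 432 and 433 CPM with vehicle. LA libraries were lower at day 6 with no overlap, while the day 2 groups overlapped (day difference -0.67, SE 0.0967, adjusted p = 2.48e-05). Mymx (myomerger), its partner in fusion, had 44.4, 36.8, 44.5 and 34.5 CPM with LA at day 6, against 51, 50.9, 46.5 and 50.02 CPM with vehicle. Mymx at day 2 had 50.99, 54.5, 56.1 and 51.95 CPM with LA, against 42.3, 40.01, 42.3 and 40.3 CPM with vehicle. The sign turned between the days, LA being above vehicle at day 2 and below it at day 6 with no overlap at either (log2 effects -0.31 at day 6, adjusted p = 0.00346, and 0.38 at day 2, adjusted p = 0.00144; day difference -0.68, SE 0.103, adjusted p = 3.65e-05).

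Across the fusion list 9 of 28 members had a negative and 5 a positive day difference (50% called beside 19.7% of all genes). Trim72, which repairs muscle membranes, had a day difference of -0.82 (adjusted p = 1.51e-04). Elmo1, which acts with Dock proteins to activate Rac, rose with LA at day 6, at 17.6 ± 0.999 CPM with LA and 8.66 ± 1.298 CPM with vehicle, and had 5.54 ± 0.929 and 5.87 ± 0.6200 CPM at day 2 (day difference 1.06, adjusted p = 2.13e-04). Myogenic regulators were mixed, with 5 positive and 6 negative of 33 (33.3% called), and 3 positive without day 2 vehicle library 4. Myod1 averaged 113 ± 7.02 CPM with LA and 140.1 ± 3.43 CPM with vehicle at day 6, and 168 ± 9.67 and 159 ± 13.3 CPM at day 2 (day difference -0.39, adjusted p = 6.10e-04; 0.0703 with length and GC trends removed). Myog averaged 682 ± 49.1 and 806 ± 32.8 CPM with LA and vehicle at day 6, and 921 ± 62.97 and 843 ± 99.4 CPM at day 2 (day difference -0.37, adjusted p = 0.00456; 0.0642 without day 2 LA libraries 3 and 4, and 0.145 with length and GC trends removed). Ankrd1, a stretch-responsive cofactor, had -0.43 (adjusted p = 3.85e-05), and Snai2, a repressor that can hold back myogenic genes, 0.52 (adjusted p = 0.003298).

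Cdkn1a, the cyclin-dependent kinase inhibitor p21 that is induced as myoblasts leave the cycle, had 1033, 846, 1084 and 892 CPM with LA at day 6, against 1553, 1551, 1313 and 1367 CPM with vehicle. Cdkn1a at day 2 had 853, 897, 989 and 892 CPM with LA, against 806, 882, 874 and 801 CPM with vehicle. It rose between the days in vehicle cells by 0.78 on the log2 scale, while in LA cells the change was 0.09 (adjusted p = 0.307), a day difference of -0.7 (SE 0.0946, adjusted p = 1.12e-05). Cdkn2d, another inhibitor of this kind, had -0.84 (adjusted p = 4.39e-04), and Ccnd3, a cyclin that persists in differentiating muscle, -0.46 (adjusted p = 8.29e-05). The cell cycle list had 8 positive and 2 negative calls of 59, 16.9% beside 19.7% of all genes, and 5 positive calls without day 2 vehicle library 3 or day 6 LA library 4. Its calls included the replication helicase subunit Mcm4 at 0.37 (adjusted p = 0.00304; 0.0626 with length and GC trends removed) and the transcription factor E2f2 at -0.72 (adjusted p = 1.05e-05).

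Matrix genes gave the highest count of positive day differences among the lists. Of 53 tested collagens and matrix genes, 27 had a higher LA effect at day 6 than at day 2 and 2 a lower one (54.7% called beside 19.7% of all genes, median 0.28). LA raised 27 and lowered 5 of them at day 6 (7.83% and 9.38% of all genes), and raised 1 and lowered 1 at day 2 (8.27% and 6.82%). Mmp2, a gelatinase that remodels matrix, had 1774, 1834, 1847 and 2008 CPM with LA at day 6, against 1160.0, 1201, 1232 and 1203 CPM with vehicle. Mmp2 at day 2 had 843, 854, 911 and 764 CPM with LA, against 970.0, 779.9, 844 and 931 CPM with vehicle. Both day 6 groups stood above day 2, LA highest, and the day 2 groups overlapped (day difference 0.7, SE 0.0839, adjusted p = 1.35e-06). Col3a1, a fibrillar collagen, had 10260.0, 8673, 9989 and 8812 CPM with LA at day 6, against 6909, 7452, 6754 and 6731 CPM with vehicle, and at day 2 5692, 5799, 5893 and 6324 CPM with LA, against 6177, 6268, 6256 and 5541 CPM with vehicle (day difference 0.47, SE 0.0803, adjusted p = 1.28e-04). Col12a1, a fibril-associated collagen, averaged 3185 ± 145 CPM with LA and 1921 ± 205 CPM with vehicle at day 6, and 2452 ± 245 and 2712 ± 277 CPM at day 2 (day difference 0.87, adjusted p = 2.63e-06).

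Omd, a small leucine-rich proteoglycan first described in bone, had 33.6, 44.3, 28.7 and 48.7 CPM with LA at day 6, against 7.61, 5.68, 15.2 and 13.4 CPM with vehicle. Omd at day 2 had 51.9, 40.3, 51.7 and 45 CPM with LA, against 37.2, 39.2, 37.7 and 73.3 CPM with vehicle. The day 6 vehicle libraries were low and apart from the other groups (day difference 1.87, SE 0.397, adjusted p = 0.00326). Pdgfra, a receptor that marks fibroblasts and fibro-adipogenic cells of muscle, had a day difference of 0.78 (adjusted p = 2.48e-05) and Dcn, the proteoglycan decorin, 0.56 (adjusted p = 0.0177; 0.0556 without day 2 LA libraries 3 and 4). Fibroblast markers moved with the matrix group. The 18 of 20 markers in the table held 1.495 to 1.63% of counts with LA and 1.16 to 1.26% with vehicle at day 6, and 1.05 to 1.123% and 0.968 to 1.124% at day 2. Of 17 tested, 6 had a positive and 0 a negative day difference (35.3% called beside 19.7% of all genes). Col1a1, Col3a1, Col14a1, Lum and Dcn stand in both lists, and the part of these markers in the matrix result was not tested.

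**Figure D4:**
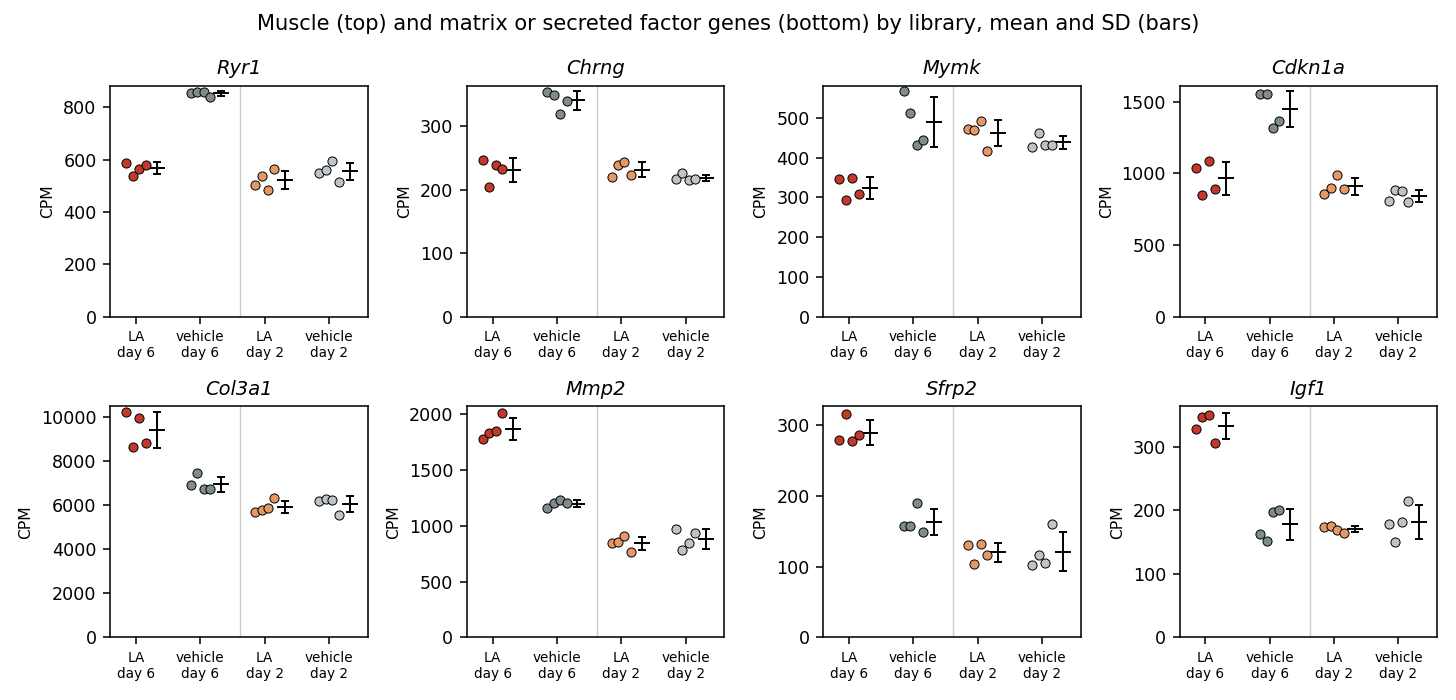
CPM (vertical) of 4 muscle or cell cycle exit genes (top) and 4 matrix or secreted factor genes (bottom) in each library, grouped as LA and vehicle at day 6 and LA and vehicle at day 2; points are libraries and bars the mean ± SD (n = 4). Ryr1, Chrng and Cdkn1a are highest in day 6 vehicle cells, while Col3a1, Mmp2, Sfrp2 and Igf1 are highest in day 6 LA cells.

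Growth factor genes of the insulin-like axis had 9 positive and 2 negative calls of 22, 50% called beside 19.7% of all genes. Igf1, the main growth factor of the axis in muscle, had 327, 347, 350.5 and 306 CPM with LA at day 6, against 162, 152, 198 and 200.2 CPM with vehicle. Igf1 at day 2 had 174, 175, 169.5 and 165 CPM with LA, against 179, 149.6, 182 and 215 CPM with vehicle. The day 6 LA libraries stood above the other 12 (day difference 0.99, SE 0.123, adjusted p = 1.13e-05). Igf2, which differentiating myoblasts secrete, went the other way, at 217 ± 15.7 CPM with LA and 325 ± 47.1 CPM with vehicle at day 6, and 682 ± 37.4 and 677 ± 58.5 CPM at day 2 (day difference -0.6, adjusted p = 0.00139). The binding protein Igfbp2 had a day difference of 0.97 (adjusted p = 0.00122). Among markers of satellite and reserve cells, 6 of 24 were positive and 3 negative (37.5% called beside 19.7% of all genes). With length and GC trends removed, 2 were positive. Pax7, the satellite cell factor, averaged 21.8 ± 1.85 CPM with LA and 16.5 ± 2.73 CPM with vehicle at day 6, and 33.8 ± 1.04 and 35.5 ± 1.72 CPM at day 2 (day difference 0.48, adjusted p = 0.00491). Vcam1, an adhesion molecule of satellite cells, had 0.68 (adjusted p = 0.00336).

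Wnt signalling, which the study's title names, uses secreted ligands, Frizzled and Lrp receptors, and beta-catenin. Secreted antagonists had 4 positive and 0 negative day differences of 11 (36.4% called beside 19.7% of all genes, median 0.49), and 2 positive after thinning. Sfrp2, a secreted Frizzled-related protein that binds Wnt ligands, had 279, 315, 277 and 286 CPM with LA at day 6, against 157, 157, 189 and 149 CPM with vehicle. Sfrp2 at day 2 had 131, 103, 131 and 116 CPM with LA, against 103, 116, 104 and 161 CPM with vehicle. The day 6 LA libraries stood apart from all others and the day 2 groups overlapped (day difference 0.83, SE 0.172, adjusted p = 0.00244). Its relative Sfrp1 had 9.88, 12.7, 10.1 and 15.5 CPM with LA at day 6, against 3.52, 2.69, 4.69 and 2.802 CPM with vehicle. Sfrp1 at day 2 had 5.15, 5.74, 7.495 and 3.68 CPM with LA, against 6.81, 4.28, 5.24 and 8.74 CPM with vehicle (day difference 1.89, SE 0.344, adjusted p = 6.10e-04). Sfrp4 had 0.79 (adjusted p = 0.00428; 0.0758 after thinning).

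On the ligand side 3 of 14 members were called, all negative (21.4% called, near the 19.7% of all genes). Porcn, the acyltransferase that lipidates Wnt proteins for secretion, had 60.1, 53.3, 54.8 and 55.6 CPM with LA at day 6, against 82.3, 81.9, 77.9 and 86.03 CPM with vehicle. Porcn at day 2 had 44.2, 52.6, 52.2 and 51.2 CPM with LA, against 42.97, 44.6, 41.5 and 47.6 CPM with vehicle. Both effects passed the test, below vehicle at day 6 and above it at day 2 (adjusted p = 1.99e-08 and 0.0372), though the day 2 groups overlapped (day difference -0.72, SE 0.0813, adjusted p = 4.94e-07). The ligands Wnt9a (-0.49, adjusted p = 2.74e-04) and Wnt10a (-0.66, adjusted p = 0.003104) were below vehicle at day 6 in 16 of 16 pairs. Receptors and core members had 8 positive and 3 negative calls of 47 (23.4%, also near the share of all genes). There were 5 positive without day 2 vehicle library 4, and 1 to 4 negative in the omissions. The co-receptor Lrp5 had a day difference of 0.51 (adjusted p = 5.16e-05), and Lrp6 0.46 (adjusted p = 3.57e-04), above vehicle at day 6 in 16 of 16 pairs and below it at day 2 in 16 of 16. The Frizzled receptors Fzd4 (0.64, adjusted p = 0.00318) and Fzd2 (-0.44, adjusted p = 2.78e-04) went in opposite directions.

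Beta-catenin targets had 4 positive and 2 negative calls of 33 (18.2% beside 19.7% of all genes), and the negative count was 1 or 2 in the omissions, 1 in 14 of 16, and 1 by DESeq2, with DESeq2 size factors, with library totals alone and after thinning. Axin2 averaged 9.98 ± 0.596 CPM with LA and 12.7 ± 1.61 CPM with vehicle at day 6, and 10.6 ± 1.09 and 11.5 ± 0.615 CPM at day 2 (day difference -0.26, SE 0.138, adjusted p = 0.187). Lef1 averaged 9.83 ± 0.8101 and 11.04 ± 0.418 CPM with LA and vehicle at day 6, and 14.6 ± 1.45 and 18.6 ± 2.04 CPM at day 2 (0.18, SE 0.147, adjusted p = 0.4196). Ctnnb1, beta-catenin itself, averaged 719 ± 28.7 and 659 ± 6.15 CPM with LA and vehicle at day 6, and 795 ± 8.07 and 738 ± 20.3 CPM at day 2 (0.02, SE 0.0614, adjusted p = 0.882). No day difference of these 3 genes passed the test.

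A separate block of negative day differences came from LA libraries above vehicle at day 2. For ribosomal and respiratory chain shares, the day 2 ANGPTL4 libraries also lay above vehicle, as given below. In the respiratory chain list 61 of 82 members had a lower LA effect at day 6 and 0 a higher one (74.4% called beside 19.7% of all genes, median -0.59). LA raised 56 members at day 2 (8.27% of all genes rose) and 0 at day 6 (7.83% rose), where 11 fell (9.38% fell). Ribosomal protein genes had 42 negative of 80 (52.5% called, median -0.59), with 61 raised at day 2 and 0 called at day 6. Mitochondrial ribosomal proteins had 24 negative of 78 (30.8%) and proteasome subunits 16 of 35 (45.7%). All these lists had 0 positive, and 11% of all genes were negative. Ndufs3, a subunit of complex I, had 53.3, 52.2, 54.7 and 51.6 CPM with LA at day 6, against 68.7, 65.5, 59.7 and 64.7 CPM with vehicle. Ndufs3 at day 2 had 68.5, 70.9, 71.4 and 60.4 CPM with LA, against 60.4, 43.3, 59.4 and 45.6 CPM with vehicle. LA lay below vehicle at day 6 and above it at day 2, though at day 2 its lowest and the highest vehicle library were nearly level (day difference -0.68, SE 0.123, adjusted p = 3.74e-04). Rps27a, a ribosomal protein made as a ubiquitin fusion, had 346, 352, 397 and 226 CPM with LA at day 2, against 216, 144, 209.7 and 183 CPM with vehicle, and 212 ± 9.79 and 221 ± 26.8 CPM at day 6 (day difference -0.88, adjusted p = 0.00534). Ribosomal protein genes have near-identical copies, so their values are uncertain.

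The day 2 LA libraries were not alike in this block. Ribosomal protein genes held 2.62, 2.702, 3.05 and 1.96% of counts in day 2 LA libraries 1 to 4, against 1.57 to 2.01% with vehicle. At day 6 the share was 1.79 to 1.87% with LA and 1.66 to 1.99% with vehicle. Library 4 thus lay within the vehicle range and the other 3 above it. Respiratory chain genes held 0.854, 0.895, 0.994 and 0.746% in the same libraries, against 0.692 to 0.755% with vehicle, and library 4 was again the lowest of the 4. Day 2 ANGPTL4 libraries held 2.12 to 2.51% in ribosomal protein genes and 0.802 to 0.885% in respiratory chain genes, all above the day 2 vehicle range. The ribosomal count was 22 without day 2 LA library 3, 27 without day 2 LA library 2, 20 without day 6 vehicle library 1, and 27 without day 6 LA library 2 or 4, and 57 without day 2 LA library 4. The mitochondrial ribosomal count was 15 without day 2 LA library 3 and 14 without day 6 vehicle library 1, and the proteasome count was 8 to 10 without day 2 vehicle library 1 or 3, day 2 LA library 2 or 3, day 6 vehicle library 1, 2 or 4, or day 6 LA library 2 or 4. The respiratory chain count was between 44 and 66 in the 16 omissions.

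**Figure D5:**
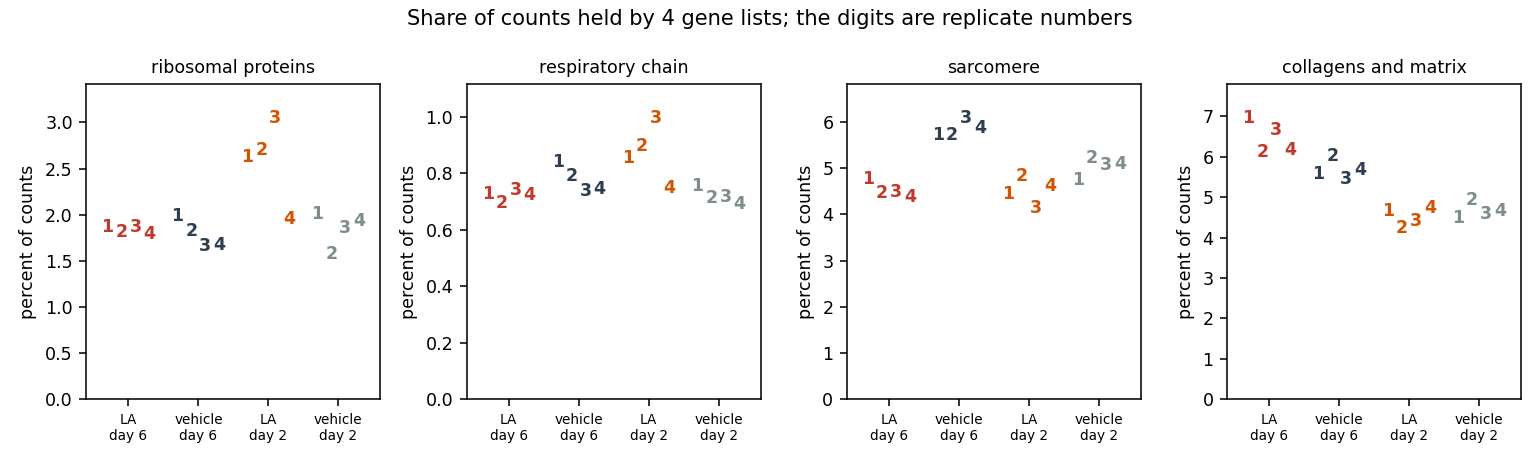
Percent of each library's counts (vertical) held by 4 gene lists, grouped as LA and vehicle at day 6 and LA and vehicle at day 2; each digit is a library and gives its replicate number. Day 2 LA libraries 1 to 3 lie above the other libraries for ribosomal protein genes while library 4 does not, and the day 6 LA libraries lie below day 6 vehicle for sarcomere genes and above it for matrix genes.

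Transcript length moved with this block, and with the sign of the day difference in most other patterns. Genes called at day 2 and not at day 6 had a median length of 1759 nucleotides where the day difference was negative and 6930 where it was positive, against 3413 over all genes tested. Genes called at day 6 and not at day 2 had medians of 3267 and 4366 nucleotides, negative first. In the same order, the medians were 1821 and 6143 for genes called at both days with opposite signs. They were 2366 and 5208 for genes called at neither day. Genes called at both days with 1 sign went the other way, at 6016 and 3311. With each library's trend on length and GC content removed, negative calls went from 61 to 37 in the respiratory chain list. They went from 42 to 27 in the ribosomal list and from 16 to 4 in the proteasome list. The sarcomere list went from 35 to 26 and excitation-contraction coupling from 22 to 20, while the neuromuscular synapse stayed at 9. Positive calls in the matrix list went from 27 to 19. The day 2 pattern then counted 284 genes and the day 6 pattern 1132. Removing the trend would also remove a response that itself followed length.

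Several genes outside the lists differed strongly between the days. Aoc3, a copper amine oxidase of adipocytes and smooth muscle, had 13.7, 14.9, 13.7 and 16.4 CPM with LA at day 6, against 1.55, 2.79, 3.804 and 3.94 CPM with vehicle. Aoc3 at day 2 had 10.8, 9.71, 10.7 and 10.9 CPM with LA, against 9.903, 7.95, 8.86 and 9.900 CPM with vehicle (day difference 2.08, SE 0.201, adjusted p = 2.73e-08). The day 6 vehicle libraries were the low group. Padi2, which converts arginine in proteins to citrulline, had 22.7, 15.5, 21.6 and 19.4 CPM with LA at day 6, against 56.6, 53.3, 46.1 and 55.6 CPM with vehicle. Padi2 at day 2 had 11.5, 11.1, 13.1 and 11.6 CPM with LA, against 10.4, 15.1, 12.2 and 11.6 CPM with vehicle (day difference -1.35, SE 0.154, adjusted p = 9.30e-07). It rose between the days in both, by 0.74 on the log2 scale with LA and 2.09 with vehicle. Igfn1, an immunoglobulin-like protein of skeletal muscle, averaged 16.6 ± 1.06 CPM with LA and 39.6 ± 5.87 CPM with vehicle at day 6, and 28.8 ± 4.71 and 20.98 ± 5.002 CPM at day 2 (day difference -1.69, adjusted p = 5.29e-05). The carboxylesterase gene Ces1a, which has near-identical relatives and is therefore uncertain, had 2.25 (adjusted p = 5.29e-05) at 8.11 ± 2.53 CPM in day 6 LA cells and 1.07 ± 0.262 CPM in vehicle cells.

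Several genes turned sign between the days. Sema3e, a secreted guidance protein, had 175, 196, 182 and 193 CPM with LA at day 6, against 119, 122, 134 and 121 CPM with vehicle. Sema3e at day 2 had 154, 150.3, 149.9 and 147 CPM with LA, against 185, 163, 169.5 and 186 CPM with vehicle. The groups did not overlap at either day, with LA higher at day 6 and lower at day 2 (day difference 0.82, SE 0.0752, adjusted p = 1.15e-08). Ctrb1, chymotrypsinogen B, had 14.8, 10.2, 13.5 and 9.65 CPM with LA at day 6, against 28.5, 31.5, 25.6 and 32.6 CPM with vehicle. Ctrb1 at day 2 had 13.1, 13.1, 15.3 and 15.8 CPM with LA, against 9.903, 12.9, 11.5 and 9.73 CPM with vehicle. It was lower with LA at day 6 and slightly higher at day 2 (adjusted p = 0.0499 at day 2; day difference -1.64, SE 0.175, adjusted p = 4.51e-07). Adamtsl3, a matrix protein, was above vehicle at day 6 and below it at day 2 in 16 of 16 pairs each (day difference 0.7, adjusted p = 4.51e-07). Tspo, a cholesterol-binding protein of the outer mitochondrial membrane, averaged 84.2 ± 10.3 CPM with LA and 114 ± 16.4 CPM with vehicle at day 6, and 108 ± 15.3 and 61.2 ± 12.01 CPM at day 2 (day difference -1.25, adjusted p = 3.65e-04).

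Stress lists were called at shares of 9.09 to 30.6%, beside 19.7% of all genes. Oxidative stress defence had 5 positive and 6 negative calls of 36 (30.6%), and hypoxia response 8 and 2 of 36 (27.8%). Close to the share of all genes were heat shock proteins with 0 and 6 of 27 (22.2%) and interferon response with 5 and 1 of 30 (20%). Immediate early genes were close to it too, with 1 and 5 of 32 (18.8%). ATF4 targets had 1 and 4 of 32 (15.6%) and endoplasmic reticulum stress 1 and 1 of 22 (9.09%). Leaving out each library in turn gave 3 to 8 positive calls for oxidative stress defence (3 without day 6 vehicle library 1 or day 6 LA library 2 or 4, 8 without day 6 LA library 3), 2 to 5 negative for ATF4 targets, 2 to 5 negative for immediate early genes and 2 positive for interferon response without day 2 vehicle library 4. Slc7a11, the cystine importer that supplies glutathione synthesis, had 19.6, 18.7, 20.2 and 7.88 CPM with LA at day 2, against 6.101, 4.55, 7.15 and 8.25 CPM with vehicle. Library 4 of the LA group lay among the vehicle values and the other 3 lay above them (day 2 log2 effect 1.43, adjusted p = 0.00225). Slc7a11 at day 6 averaged 6.201 ± 0.674 CPM with LA and 8.13 ± 2.29 CPM with vehicle (day difference -1.82, SE 0.401, adjusted p = 0.00386). The redox protein thioredoxin, Txn1 (-0.61, adjusted p = 0.00111), and the small heat shock protein Hspb1 (-0.59, adjusted p = 0.00398; 0.111 with length and GC trends removed) were raised at day 2 as well, in 16 and 15 of 16 pairs. Egr3, an immediate early transcription factor, was lowered at both days, more so at day 6 (log2 effects -0.64 and -0.26, day difference -0.39, adjusted p = 0.00409). Atrophy and autophagy genes had 0 positive and 8 negative calls of 30 (26.7%), but 3 negative without day 2 LA library 3 and 5 without day 2 vehicle library 2 or day 6 vehicle library 1 or 2. The TGF-beta and myostatin list had 5 positive and 2 negative calls of 37 (18.9%; 1 to 3 negative in the omissions), with the ligand Bmp4 at 0.64 (adjusted p = 0.002404). Cell cycle exit genes had 1 positive and 4 negative of 18 (27.8%), bone and cartilage markers 2 and 0 of 8 (25%), and smooth muscle markers 0 and 2 of 10 (20%), the last with 1 or 2 negative in the omissions.

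ANGPTL4-treated cells offered a second course over the same days. The day change with LA differed from the day change with ANGPTL4 for 901 genes (6.93% of 12994), 485 higher and 416 lower with LA, a comparison that shares the LA libraries with the results above and uses no vehicle library. The day difference of ANGPTL4 against vehicle was called for 36 genes (0.277%), 11 higher (0.0847%) and 25 lower (0.192%), and 2415 genes had an unadjusted p under 0.05; it shares the vehicle libraries. Angptl4 transcripts in ANGPTL4-treated cells averaged 19.05 ± 2.06 CPM at day 6 and 21.6 ± 0.5901 CPM at day 2, so that the day change with LA exceeded that with ANGPTL4 by 1.97 on the log2 scale (SE 0.0942, adjusted p = 3.30e-16). For Pdk4 the LA minus ANGPTL4 value was 1.5 (adjusted p = 1.50e-06), for Lpl 2.63 (4.30e-05), for Mmp2 0.72 (9.66e-07), for Igf1 0.81 (1.44e-04), for Chrng -0.56 (7.51e-06) and for Ryr1 -0.51 (5.96e-05).

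By list, 37 of 62 sarcomere members, 18 of 36 excitation-contraction coupling members and 6 of 18 synapse members had a lower day change with LA than with ANGPTL4, and 0 a higher one (3.2% of all genes were lower). Among matrix genes 20 of 53 were higher and 0 lower, and among Wnt antagonists 6 of 11 were higher and 0 lower (3.73% of all genes were higher). PPAR targets had 10 higher and 0 lower of 36. Ribosomal protein genes had 0 calls in either direction of 80 in this comparison (median -0.27), and respiratory chain genes 0 higher and 6 lower of 82 (median -0.33). Myod1 (-0.07, adjusted p = 0.669), Myog (-0.18, adjusted p = 0.255) and Ndufs3 (-0.35, adjusted p = 0.09198) gave no call against ANGPTL4.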

How the data were processed

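The members and gene lists were chosen with earlier results of these data known. The deposited table holds whole-number counts per gene for 24 libraries and 14693 genes, and its deposited name calls it filtered; the lowest gene total was 51. Per the labels' protocols, RNA with an integrity number above 7 was made into 3' end (QuantSeq) libraries. The submitters' processing notes name Trimmomatic, STAR 2.7.1a, HTSeq 0.9.1, DESeq, DESeq2 and the mouse build mm39. Counting and strand settings are not given in the sources used here, so overlapping genes, antisense pairs and near-identical copies remain uncertain.

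All 24 libraries were fitted in edgeR 4.0.16 (R 4.3.3) with robust quasi-likelihood, 1 mean per group, TMM scaling and the default low-count filter, which kept 12994 genes. The fit had 18 residual degrees of freedom and a common biological coefficient of variation of 6.51%. P-values were adjusted by Benjamini-Hochberg over all genes tested and called under 0.05. CPM are edgeR's counts scaled to TMM-adjusted library totals, a log2 value is edgeR's fitted fold change, and its SE is the change divided by the square root of the F statistic. A list's summed share is a percent of raw counts. The pairs are the 16 pairings of an LA with a vehicle library of 1 day.

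The genes named in the text follow a rule: 17 genes of the study's question; the 10 highest and 10 lowest called day differences with at least 5 CPM in a group and libraries that do not overlap at 1 day at least; up to 4 called members of each list by smallest p; and 4 genes of each pattern by smallest p. Genes of the rule are described where they bear on a result, and others are not reported here. Myf5, Cebpa, Pparg, Col1a1, Col14a1, Lum, Ucp2 and Slc27a1 are named outside it, as markers or list members, after values were seen. The fit was also run on simulated counts with known changes planted in the day 6 LA libraries alone. Those counts held no day effect and no length trend, so that run cannot speak to either. Alternatives were other scalings, filters and tools, DESeq2 1.42.0, limma-voom 3.58.1, thinning, leaving out each library, the replicate block and, added after seeing the data, leaving out day 2 LA libraries 3 and 4 together and removing each library's trend on length and GC content (GENCODE M21 values, known for 97.9% of tested genes).

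Same-numbered libraries of different groups did not deviate together more than others did. The correlations of 24 same-numbered pairs lay between -0.304 and 0.144, and 3 exceeded 0.1. Those of 72 pairs with different numbers lay between -0.293 and 0.333, and 12 exceeded 0.1, so some libraries of different groups did share deviations. The numbers were not taken as pairing samples. Replicates of 1 group differed by more than counting noise, with a chi-square per degree of freedom of at least 1.55. Counting error, as 1 part of the spread between libraries, is larger for low counts and for the libraries of 8.19 to 10 M counts.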

Additional observations from a re-analysis of the deposited data

Results flagged for a closer look

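In 18 of 396 groups of 4 libraries examined, 1 library lay far from its 3 partners by Dixon's criterion, at a cutoff that flags 1 in 20 by chance. Genes measured in the same libraries are not independent, so the total cannot be judged against that rate. Of the 18, 6 were day 2 vehicle library 4. That library had 5541 CPM of Col3a1, with its partners between 6177 and 6268 CPM, 73.3 CPM of Omd (37.2 to 39.2), 38.0 CPM of Pax7 (34.4 to 34.8), 9.57 CPM of Atox1 (11.5 to 11.8), 170.0 CPM of Fads3 (205 to 212) and 8.99 CPM of Cdkn2d (12.6 to 12.8). A further 4 were day 2 LA library 4, which had 96.0 CPM of Dcn (118 to 122 in its partners), 7.88 CPM of Slc7a11 (18.7 to 20.2), 22.1 CPM of Ddit4 (28.2 to 29.4) and 85.1 CPM of Hspb1 (102.9 to 104).

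The other 8 were spread over 5 libraries. Day 6 vehicle library 3 had 5.42 CPM of Plin4 (2.78 to 3.22 in its partners), 1.46 CPM of Ces1a (0.897 to 0.982) and 49.5 CPM of Bmp4 (37.0 to 37.5). Day 6 LA library 2 had 155 CPM of Pygm (172 to 175) and 273 CPM of Lrp6 (242 to 245). Porcn was 44.2 CPM in day 2 LA library 1 (51.2 to 52.6), Mymk 462 CPM in day 2 vehicle library 2 (428 to 433) and Wnt10a 26.1 CPM in day 6 vehicle library 4 (22.2 to 22.7).

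Effects that differed between days or treatments were the 2554 genes with a called day difference and the 901 genes whose day change differed between LA and ANGPTL4. Among the named genes examined for these flags, which are not all that the naming rule gives, 12 had effects of opposite sign called at both days. Each had a tested day difference. These were Mymx (-0.68), Porcn (-0.72), Lrp6 (0.46), Ndufs3 (-0.68), the mitochondrial ribosomal gene Mrps24 (-1.07), the proteasome gene Psmb7 (-0.52), Tspo (-1.25), Ctrb1 (-1.64), Sema3e (0.82), Adamtsl3 (0.70), the small heat shock gene Cryab (-0.58) and the autophagosome gene Map1lc3a (-0.75).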

How the results depend on the processing

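The count of day differences was 1806 to 2820 when each of the 16 libraries was left out in turn. It was 2488 by DESeq2, 2536 by limma-voom, 2531 with DESeq2 size factors in edgeR, 2498 with library totals alone, 2418 without a low-count filter, 2569 at 5 CPM or more in 4 libraries, 2313 in the 16 libraries alone, 1950 without day 2 LA libraries 3 and 4, 1806 after thinning all libraries to the smallest total and 1809 with length and GC trends removed. Of the 2554 genes, 1661 remained called after thinning and 1390 with length and GC trends removed, where 11 changed sign. With the replicate number as a block, which pairs no samples by design, 2377 genes were called, 2341 of them among the 2554. The median over all genes moved by less than 0.1 in every scaling.

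The count of negative day differences was 890 to 1455 in the 16 omissions. LA against vehicle at day 2 gave 1152 genes after thinning, 944 without day 2 LA libraries 3 and 4, 699 with length and GC trends removed, and 632 to 2456 in the omissions. Thinning and the omissions use fewer counts or libraries, while the setting with trends removed keeps all libraries unthinned. The cause of these changes was not tested. The difference in library totals was -1.73 to 0.614 megacounts (M) at day 6, reaching 0.0755 and 0.12 in 2 omissions that turned its sign as well, and 5.21 to 10.4 M at day 2. Without day 2 LA library 4 the exact permutation test gave p = 0.0286, unadjusted and the smallest value that the remaining libraries allow. LA against vehicle at day 6 gave 1609 to 2366 genes and LA minus ANGPTL4 612 to 1102. Of 164 named genes that were called, 118 kept call and direction in 27 settings, and Ctnnb1, not called, became -0.0746 with length and GC trends removed.

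Thinning to the smallest total, a measure of what depth allows, ended the calls of Sfrp4, Lipe, Crot and Acaa2 among other named genes. Day 2 LA libraries were the deepest on average, and the day 2 shift of ribosomal and respiratory chain shares stood in libraries 1 to 3 and not in library 4. Those shares were above vehicle in the day 2 ANGPTL4 libraries as well.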
